A study of Cricetulus griseus with 8 samples.

Results

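The genes described are 10 that encode phosphatidylserine receptors, an adaptor and the proteins that bridge these receptors to dying cells, measured in LR73 cells, a Chinese hamster line, kept alone or cultured with apoptotic Jurkat cells. The genes were chosen by name, as the rows of the deposited table with the symbols Mertk, Axl, Tyro3, Gas6, Pros1, Mfge8, Itgav, Itgb5, Lrp1 and Gulp1, and all 10 were found among 26776 named genes. RNA was sequenced from 4 libraries of phagocytes alone and 4 libraries of co-cultures. Jurkat is a human T cell line, derived from an acute leukaemia although the labels call it a lymphoma, and per the labels its cells received 1500 mJ of UV-C light and were kept for 4 h before they met the phagocytes. No genotype or added agent is given in the labels for LR73 itself, and the table's column names carry a prefix, GFP, that the labels do not explain. The comparison asks which phagocyte transcripts differ after contact with apoptotic cells. The labels call the source a fibroblast line, and nothing in them says how the cultures of a group were separated, so p-values measure the spread between these libraries, which may be technical.

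Phosphatidylserine is a lipid that living cells hold on the inner face of the plasma membrane and that dying cells expose on the outer face, where phagocytes read it as a signal for engulfment. Some receptors bind it directly, while others need a secreted bridging protein that holds the lipid at one end and the receptor at the other. Gas6 and protein S (Pros1) bridge to the receptor tyrosine kinases Tyro3, Axl and Mertk, called the TAM receptors, and Mfge8 bridges to integrins that pair the alpha-v subunit (Itgav) with a beta subunit such as Itgb5. Lrp1 is a large endocytic receptor that takes part in uptake through opsonins on the dying cell, and Gulp1 is a cytoplasmic adaptor that binds the tail of Lrp1.

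Sequencing depth was 22.7 to 29.7 M (mega) reads over the named genes of each library. Values are normalized read counts, that is reads divided by 1 size factor per library. On the leading principal component of all tested genes, alone library 1 lay at -25.1, the other libraries of its group at -9.1 to -5.7 and those with apoptotic cells at 9.8 to 13.6. Of the fibroblast markers, Vim, a filament protein of mesenchymal cells, stood at 108000 to 132000 normalized counts in all libraries, while Col1a1 and Col1a2, the chains of type I collagen, reached at most 1.90 and 3.80, and Thy1 was at 0 throughout. Of 10 fibroblast markers in the table, 4 had a higher and 5 a lower mean in the co-cultures, and their summed level of 111000 to 122000 alone and 132000 to 135000 in the co-cultures was nearly all Vim. By limma Vim rose (log2 fold change 0.23, adjusted p = 0.00281) and Dcn, the matrix proteoglycan decorin, fell from a mean of 953 to 767 (-0.31, adjusted p = 0.0022). Of 15 T cell markers in the table, Cd3d, Cd3g and Cd2 had no reads in any library, and 8 had a higher and 4 a lower mean in the co-cultures. The summed level was 903 to 924 alone and 856 to 882 in the co-cultures. Nearly all of this sum was Tcf7 (means of 677 and 663) and Lat (204 and 177). The T cell markers that reached the mean of 10 normalized counts needed for a test were 3, and 1 of them passed: Cd28, a costimulatory receptor, fell from 28.3 to 17.6 (log2 fold change -0.67, adjusted p = 0.0385 by limma). Lck, a T cell kinase, had no reads alone and a mean of 2.30 in the co-cultures, under the test's minimum. Also under it, Ptprc had means of 0.761 alone and 3.59 in the co-cultures, Zap70 0 and 1.29, Bcl11b 0 and 1.26, and Cd4 1.64 and 1.35. The summed level of 10 myeloid phagocyte markers was 62.7 to 106 alone and 64.2 to 96.7 in the co-cultures, with Trem2 at 0, and that of 6 epithelial markers was 236 to 255 and 194 to 221, with Krt18, Krt19 and Cldn4 at 0. Cdh1, the only epithelial marker tested, fell (log2 fold change -0.23, adjusted p = 0.0439 by limma). The markers given singly were chosen after their values were seen. The part of these markers in the results was not tested.

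None of the receptors and bridging molecules changed past the threshold. Of the 10 genes, 9 reached a mean of 10 normalized counts and were tested, and limma called 0 of 9 at a Benjamini-Hochberg adjusted p under 0.05, a threshold that 11.7% of the 13494 genes tested passed, 6.36% as higher and 5.31% as lower. At an unadjusted p under 0.05 limma had 2 members, Mertk and Pros1, against 26.5% of all genes tested. On the recovered reads, edgeR also called 0 members, with 2 at an unadjusted p under 0.05, where it called 11.6% of all genes. DESeq2 called 0 members, with 0 at an unadjusted p under 0.05, and 12.2% of all genes. The members' median log2 fold change was -0.024, beside 0.0015 over all genes tested, and single values ran from -0.088 to 0.24. The sign of this median rested on 1 library, since it was 0.036 without alone library 2, while without any 1 of the others it ran from -0.043 (alone library 1) to -0.011 (co-culture library 1). In bulk RNA, a change in the number of cells of a type and a change in RNA per cell cannot be told apart. In the authors' deposited table the adjusted p of these 9 genes ran from 0.254 for Mertk to 0.98 for Itgav, and Gas6 had none.

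**Figure D1:**
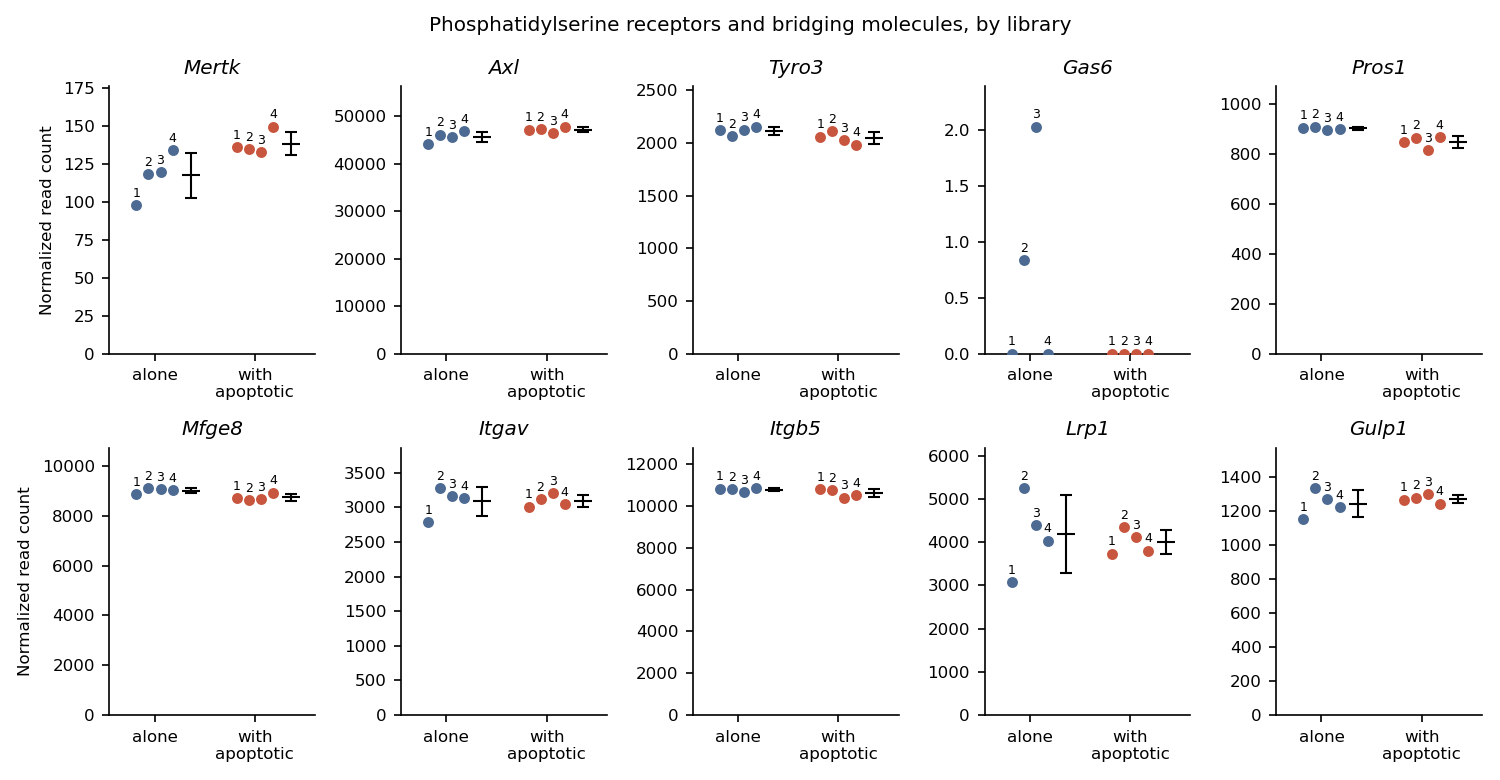
Normalized read counts of the 10 genes, one panel per gene with the axis from 0, for 4 libraries alone (blue) and 4 with apoptotic cells (red), with replicate numbers above the points and the mean and SD beside them (not drawn for Gas6, at most 2 reads per library). Only the Pros1 points of the groups are fully apart, and the alone libraries of Lrp1 spread from 3078 to 5247.

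Mertk, the TAM receptor best known from macrophages and from the retinal pigment epithelium, was measured at 97.8, 118, 120 and 134 normalized counts in alone libraries 1 to 4 and at 136, 135, 133 and 150 in co-culture libraries 1 to 4. All co-cultures lay above alone libraries 1, 2 and 3, while alone library 4 stood above co-culture library 3, so the groups overlapped. The means were 118 ± 15.1 and 138 ± 7.61 (SD, n = 4 each), which as a log2 fold change is 0.24 (SE 0.10, adjusted p = 0.16 by limma). As a percentage this is a difference of 18.2%, with a 95% interval of 1.17 to 38.1% that is not adjusted for the number of genes. The gene rested on 1027 reads over all libraries, and counting error alone gives 9.06% per alone library, against a spread of 12.8% between them. Without alone library 1, the lowest, the log2 fold change was 0.16 (adjusted p = 0.255), and without alone library 4 it was 0.31 (adjusted p = 0.0921).

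Axl, the TAM receptor found in many fibroblast-like and cancer cells, had 44196, 46117, 45626 and 46814 normalized counts alone and 47178, 47305, 46496 and 47787 with apoptotic cells. Alone library 4 was above co-culture library 3, and the other alone libraries were below every co-culture. The means were 45688 ± 1108 and 47192 ± 533 (SD, n = 4 each). The difference of 3.31% (95% interval -1.17 to 7.99%) did not pass (log2 fold change 0.047, SE 0.029, adjusted p = 0.33 by limma).

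Tyro3, the TAM receptor known chiefly from the nervous system, had 2124, 2064, 2127 and 2154 normalized counts alone and 2061, 2113, 2026 and 1984 with apoptotic cells. The groups overlapped, with co-culture library 2 inside the range of the alone libraries. The log2 fold change was -0.050 (SE 0.034, adjusted p = 0.387 by limma), a difference of -3.39% with a 95% interval of -8.36 to 1.86%. Among the TAM receptors, Mertk and Axl had higher means and Tyro3 a lower mean in the co-cultures, and none of these differences passed the test.

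Of the TAM ligands, Gas6 was barely detected. It had 0, 1, 2 and 0 reads in alone libraries 1 to 4 and no reads in any co-culture, 3 reads in all. A library without a read allows a level of up to 3 reads, which is 2.50 to 3.32 normalized counts depending on the library, and this limit covers counting error only. Both groups were at or under that limit, so no fold change is given and the gene was not tested.

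Pros1, which encodes protein S, a plasma protein that bridges to TAM receptors and also acts in anticoagulation, was measured at 906, 910, 896 and 900 normalized counts alone and at 848, 866, 817 and 867 with apoptotic cells. It was the one tested member whose groups did not overlap, with every co-culture below every alone library. The same direction without overlap was seen in 9.72% of all genes tested, and no overlap in either direction in 21.2%. The means were 903 ± 6.03 and 849 ± 23.5 (SD, n = 4 each), a difference of -5.94% (95% interval -11.4 to -0.156%). The log2 fold change of -0.088 (SE 0.039) did not pass after adjustment over all genes (limma adjusted p = 0.178). The alone libraries spread by 0.668% of their mean, less than the 3.26% that counting error alone gives per library. The adjusted p ran from 0.113 to 0.364 over the alternatives.

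**Figure D2:**
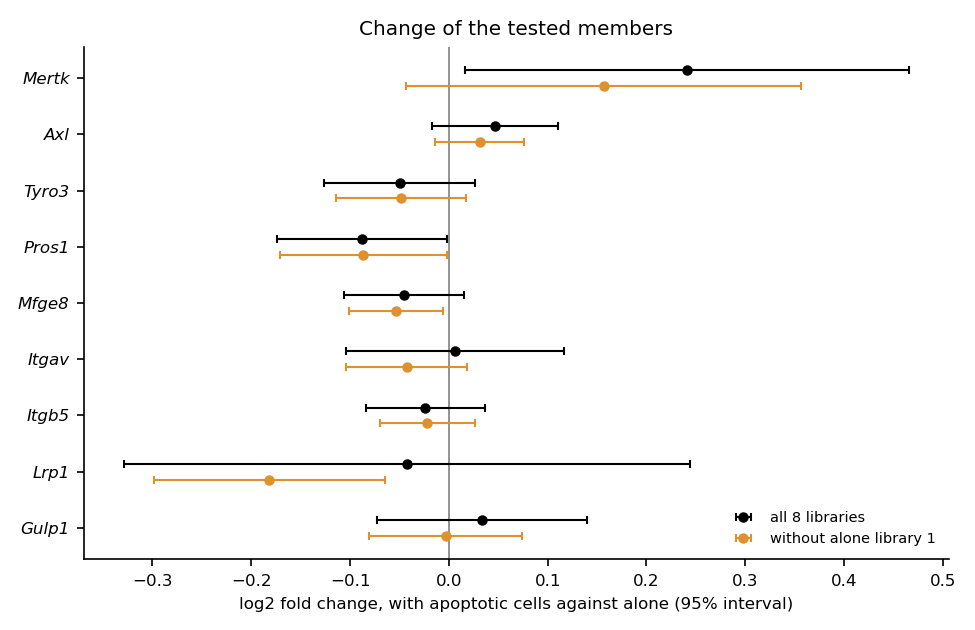
Log2 fold change with its 95% interval (not adjusted for the number of genes) for the 9 tested genes, from limma with all 8 libraries (black) and without alone library 1 (orange). With all libraries only the intervals of Mertk and Pros1 leave out 0, and without alone library 1 Lrp1 moves from -0.043 to -0.18 and Itgav and Gulp1 change sign.

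Mfge8, the secreted bridge between phosphatidylserine and alpha-v integrins, had 8865, 9110, 9064 and 9039 normalized counts alone and 8724, 8632, 8678 and 8929 with apoptotic cells. The co-cultures lay below the alone libraries except co-culture library 4, which was above alone library 1. The means were 9020 ± 107 and 8741 ± 131 (SD, n = 4 each), which as a log2 fold change is -0.045 (SE 0.027, adjusted p = 0.323 by limma). The difference of -3.09% had a 95% interval of -7.09 to 1.07%. Without alone library 1 it was -0.054 on the log2 scale (adjusted p = 0.0917).

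Itgav, the alpha-v integrin subunit, had 2785, 3277, 3159 and 3137 normalized counts alone and 3014, 3125, 3209 and 3045 with apoptotic cells. Alone library 1 was the lowest of the 8 and alone library 2 the highest, and the co-cultures lay between them. The group means were 3090 ± 212 and 3098 ± 87.5 (SD, n = 4 each), which as a log2 fold change is 0.0063 (SE 0.050, adjusted p = 0.948 by limma). Its sign turned without alone library 1 (-0.043, adjusted p = 0.314) and without co-culture library 3 (-0.011, adjusted p = 0.929).

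Itgb5, the beta subunit that pairs with alpha-v in the receptor for vitronectin and Mfge8, had 10841, 10822, 10664 and 10854 normalized counts alone and 10802, 10750, 10401 and 10531 with apoptotic cells. The groups overlapped, with co-culture libraries 1 and 2 above alone library 3. The difference of -1.63% had a 95% interval of -5.66 to 2.58% (log2 fold change -0.024, SE 0.027, adjusted p = 0.614 by limma). The alone libraries spread by 0.819% of their mean, the counting error of a library being 0.941%.

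Lrp1 was the member with the widest spread. The alone libraries had 3078, 5247, 4387 and 4033 normalized counts and the co-cultures 3737, 4350, 4111 and 3801. Alone library 1 was the lowest of the 8 libraries, alone library 2 the highest, and all 4 co-cultures lay between them. The means were 4186 ± 897 and 4000 ± 285 (SD, n = 4 each), which as a log2 fold change is -0.043 (SE 0.13, adjusted p = 0.86 by limma) with a 95% interval of -20.4 to 18.4%. With all libraries edgeR gave -0.068 and DESeq2 -0.066. The spread of 21.4% between alone libraries stood beside a counting error of 1.53% per library. Of 2692 other tested genes with a mean within 2-fold of that of Lrp1, 98.6% had a smaller SD within groups on the log2 scale.

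The value for Lrp1 rested on single alone libraries. Without alone library 1 the log2 fold change was -0.18 (SE 0.057) and passed the limma threshold (adjusted p = 0.0194), in a fit in which 26.0% of all genes passed. On the reads without that library, edgeR called Lrp1 lower as well (-0.19, adjusted p = 0.0119) and DESeq2 did not (-0.19, adjusted p = 0.252). The 3 remaining alone libraries still overlapped with the co-cultures, since alone library 4 stood below co-culture libraries 2 and 3. Without alone library 2, the highest, the sign turned (0.075, adjusted p = 0.675).

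Gulp1, the adaptor of Lrp1, had 1149, 1331, 1269 and 1219 normalized counts alone and 1265, 1276, 1296 and 1242 with apoptotic cells. As for Lrp1 and Itgav, alone library 1 was the lowest of the 8 and alone library 2 the highest. The log2 fold change was 0.034 (SE 0.048, adjusted p = 0.69 by limma), with a 95% interval of -4.92 to 10.2%, and without alone library 1 it was -0.0032 (adjusted p = 0.965).

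**Figure D3:**
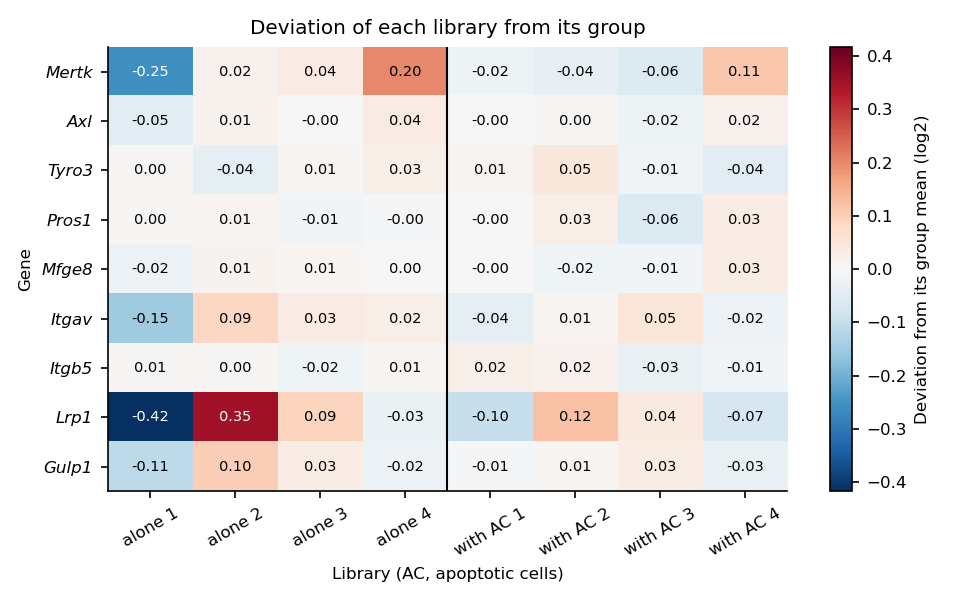
Deviation of each library from the mean of its group, on the log2 scale, for the 9 tested genes (rows) in the 8 libraries (columns, AC for apoptotic cells). Lrp1, Itgav and Gulp1 are lowest in alone library 1 (-0.42, -0.15 and -0.11) and highest in alone library 2 (0.35, 0.088 and 0.10). Axl, Tyro3, Pros1, Mfge8 and Itgb5 lie at most 0.056 from their group means.

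The members thus varied within groups in different ways. In alone library 1, Lrp1 lay 0.42 below its group mean on the log2 scale, Mertk 0.25, Itgav 0.15 and Gulp1 0.11, while Tyro3, Pros1 and Itgb5 lay within 0.0061 of theirs. In alone library 2, Lrp1 was 0.35, Gulp1 0.10 and Itgav 0.088 above the group mean, and Mertk 0.019. Among the co-cultures the largest deviations were 0.12 for Lrp1 in library 2 and 0.11 for Mertk in library 4. The median absolute deviation of the 9 members in alone library 1 was 0.048, beside 0.13 over all genes tested in that library, and in the other 7 libraries it was 0.011 to 0.031, beside 0.035 to 0.075. Mfge8, Pros1 and Itgb5 had small spreads for their levels: 3.35%, 2.36% and 4.02% of the tested genes within 2-fold of their means had a smaller SD.

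**Figure D4:**
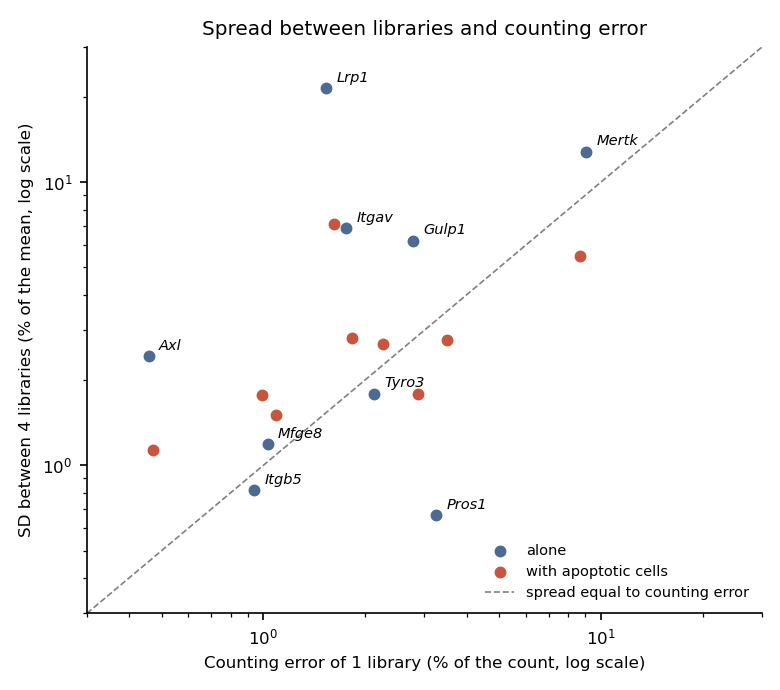
SD between the 4 libraries of a group as a percentage of the mean (vertical, log scale) against the counting error of 1 library, also in percent (horizontal, log scale), for the 9 tested genes alone (blue, named) and with apoptotic cells (red). On the dashed line the spread equals counting error; Lrp1 alone lies far above it (21.4% against 1.53%) and Pros1 alone below it (0.668% against 3.26%).

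Genes around the members were described from 9 lists of related function that hold 178 genes of the table, of which 102 were tested. By limma 3 were higher and 5 lower with apoptotic cells, 7.84% of them beside 11.7% of all genes tested, and their median log2 fold change was 0.0097 beside 0.0015. Without alone library 1 these counts were 10 and 13, in a fit in which 26.0% of all genes passed. Genes named only for a call made without that library were chosen after their values were seen. The counts of higher and lower genes were 3 and 3 without alone library 2, 3 and 1 without alone library 3, and 2 and 2 without alone library 4. Without co-culture library 1, 2, 3 or 4 they were 2 and 1, 2 and 1, 3 and 0, or 2 and 1.

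Of 26 genes in the table that were listed as other receptors for apoptotic cells, 15 did not reach the mean of 10 normalized counts. Timd4, a direct phosphatidylserine receptor of macrophages, had no reads. Adgrb1, the receptor BAI1, listed under its older symbol, had a mean of 0.908 normalized counts alone and 0.275 with apoptotic cells, and Stab2, a scavenger receptor of sinusoidal endothelium, had 9.86 and 5.37. None of these was tested. Of 11 tested genes of this list 1 rose, Cd36, a scavenger receptor that also binds thrombospondin. It went from 116 ± 9.45 to 148 ± 4.61 normalized counts (SD, n = 4 each), which as a log2 fold change is 0.35 (SE 0.080, adjusted p = 0.019 by limma). The Cd36 call was lost without alone library 4 or one of co-cultures 1, 2 or 4 (adjusted p = 0.0507 to 0.0624). With alone library 1 left out, limma called 2 genes of this list higher, Cd36 and Jmjd6 (0.15, adjusted p = 0.00453).

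Among 11 tested genes listed with bridging molecules and opsonins other than the members, 1 rose and 1 fell. Thbs1, thrombospondin, a secreted matrix protein that can bridge dying cells to Cd36 and alpha-v integrins, had 3891, 4731, 4657 and 4652 normalized counts alone and 6901, 6726, 6871 and 6716 with apoptotic cells. The groups were far apart, and Thbs1 rose by 0.61 on the log2 scale (SE 0.057, adjusted p = 0.000148 by limma), a call kept in each of the 21 alternatives (0.54 to 0.63). Lgals3, galectin-3, a sugar-binding protein that is also a ligand of Mertk, fell from 2147 ± 153 to 1877 ± 35.5 (log2 fold change -0.19, SE 0.049, adjusted p = 0.0307 by limma). The Lgals3 call was lost without alone library 4 or without any 1 of the co-cultures (adjusted p = 0.0538 to 0.0973). Calr, calreticulin, a partner of Lrp1 on the cell surface, had 50714 ± 450 and 49423 ± 745 (log2 fold change -0.037, SE 0.027, adjusted p = 0.403 by limma). Edil3, a bridge to integrins related to Mfge8, had at most 1 read per library. In the fit without alone library 1, limma called 3 genes of this list higher and 1 lower, with 26.0% of all genes passing. The higher ones were Thbs1, Anxa1 (0.11, adjusted p = 0.00263) and C1qbp (0.17, adjusted p = 8.34e-05), a binding partner of the opsonin C1q.

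Of the other integrin subunits 9 were tested, and 1 rose and 1 fell. Itgb3, the other beta partner of Itgav in apoptotic cell uptake, had 1 read in alone library 3 and none elsewhere. Itga5, the alpha chain of the fibronectin receptor, rose from 4850 ± 203 to 5595 ± 84.4 normalized counts (SD, n = 4 each), which as a log2 fold change is 0.21 (SE 0.036, adjusted p = 0.00521 by limma), and kept its call in each of the 21 alternatives. Its partner Itgb1, which also pairs with Itgav, had 20828 ± 419 and 21741 ± 367 (log2 fold change 0.062, SE 0.029, adjusted p = 0.198 by limma). Itga3, the alpha chain of a laminin receptor, fell by 0.24 on the log2 scale (SE 0.065, adjusted p = 0.0384 by limma), a call lost without alone library 2, 3 or 4 or without any 1 of the co-cultures (adjusted p = 0.0634 to 0.111).

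Among 13 tested relatives and partners of Lrp1, 1 fell and none rose. Dab2, an endocytic adaptor for Lrp1 and related receptors, fell from 3743 ± 396 to 3109 ± 65.3 normalized counts (SD, n = 4 each), by 0.26 on the log2 scale (SE 0.067, adjusted p = 0.0314 by limma). The groups overlapped, with alone library 1 below co-culture library 1. The Dab2 call was lost without alone library 2, 3 or 4 or without any 1 of the co-cultures (adjusted p = 0.0673 to 0.0949). The limma fit without alone library 1 called 3 genes of this list lower, beside 26.0% of all genes called in either direction. They were Dab2 (-0.34, adjusted p = 3.94e-09) and the Wnt co-receptors Lrp5 (-0.11, adjusted p = 0.0215) and Lrp6 (-0.13, adjusted p = 0.00977). Lrpap1, the chaperone that keeps ligands off Lrp1 in the secretory pathway, had 3627 ± 191 and 3463 ± 97.8 (log2 fold change -0.066, SE 0.042, adjusted p = 0.35 by limma). Tgm2, a transglutaminase that acts with alpha-v integrin and Mfge8, had 1998 ± 73.1 and 2071 ± 24.1 (0.053, SE 0.037, adjusted p = 0.385 by limma).

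Gas6 and Pros1 need vitamin K-dependent carboxylation of their lipid-binding domain, and 0 of 7 tested genes of that list were called by limma, with 1 at an unadjusted p under 0.05. Ggcx, the carboxylase itself, had 895 ± 38.4 and 930 ± 37.4 normalized counts (SD, n = 4 each), with a log2 fold change of 0.056 (SE 0.048, adjusted p = 0.48 by limma). Of 18 tested genes of TAM receptor signalling and its induced inhibitors limma also called 0, with 1 at an unadjusted p under 0.05. For these lists, edgeR and DESeq2 called 0 genes each. Without alone library 1, where 26.0% of all genes passed, limma still called 0 in the vitamin K list and 3 in the signalling list. These were the kinase Lats1, which was higher (0.10, adjusted p = 0.0346), and Pik3ca (-0.12, adjusted p = 0.012) and the phospholipase Plcg1 (-0.069, adjusted p = 0.036), which were lower.

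Among 11 tested sheddases, which cut TAM receptors and Lrp1 from the cell surface, and their inhibitors, 1 fell. Timp2, a metalloprotease inhibitor, fell from 3549 ± 96.8 to 3160 ± 97.7 normalized counts (SD, n = 4 each), which as a log2 fold change is -0.17 (SE 0.036, adjusted p = 0.0137 by limma), with the call lost without alone library 3 or one of co-cultures 3 or 4 (adjusted p = 0.0516 to 0.0521). Timp1, another inhibitor of this family, was called higher by limma without alone library 1 (0.16, adjusted p = 0.00154), where 26.0% of all genes passed. Adam17, the protease that sheds Mertk, had 1583 ± 109 and 1639 ± 48.6 (0.052, SE 0.051, adjusted p = 0.547 by limma).

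Of 17 tested genes listed with scramblases, flippases and enzymes of phosphatidylserine metabolism 1 fell. Pisd, which decarboxylates phosphatidylserine in mitochondria, fell by 0.18 on the log2 scale (SE 0.041, adjusted p = 0.0172 by limma), with the call lost without alone library 3 or one of co-cultures 1, 2 or 3 (adjusted p = 0.0502 to 0.0607). Leaving out alone library 1, limma called 4 genes of this list lower and 1 higher, with 26.0% of all genes passing. The lower ones were Pisd, the flippase gene Atp11a (-0.16, adjusted p = 0.000121), Atp9b of the same gene family (-0.15, adjusted p = 0.00628) and the scramblase gene Ano6 (-0.21, adjusted p = 6.47e-05). The higher one was Atp10a (0.11, adjusted p = 0.00261). Of 5 tested genes that act against engulfment limma, edgeR and DESeq2 each called 0, with 1 at an unadjusted p under 0.05 by each. Cd47, the main signal against engulfment, had 3286 ± 239 and 3113 ± 77.4 normalized counts (-0.075, SE 0.051, adjusted p = 0.376 by limma) and passed as lower without alone library 1 (-0.12, adjusted p = 0.00296). In that fit limma also called Plaur, a receptor for a secreted protease, as higher (0.39, adjusted p = 7.8e-05), beside 0.28 (adjusted p = 0.101) with all libraries.

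**Figure D5:**
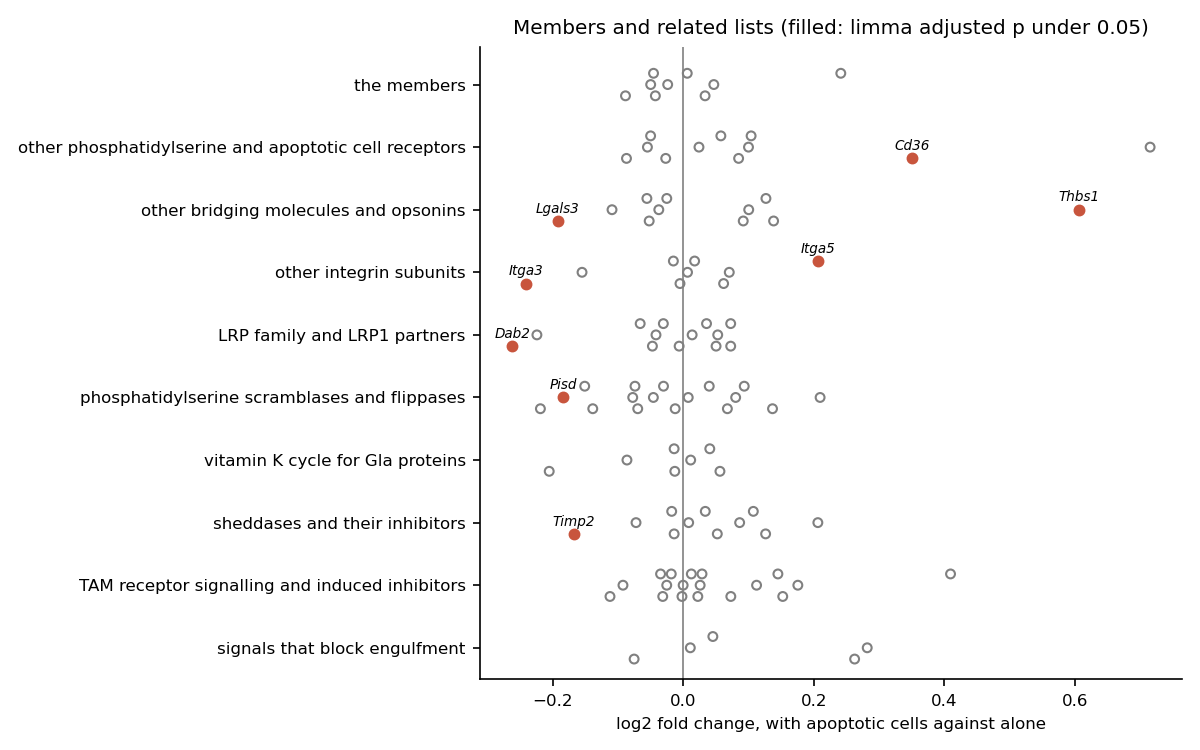
Log2 fold change (horizontal) of the 9 tested members and of the 102 tested genes of related lists, 1 row per list, with genes that passed a limma adjusted p of 0.05 filled and named. No member is filled, and Thbs1 (0.61), Cd36 (0.35) and Dab2 (-0.26) lie farthest out among the filled points.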

How the data were processed

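The only file is a table that the authors deposited, with a column of signal for each of the 8 libraries. From the values, this signal is the gene count over a size factor that is constant within a library: all values above 0 were whole multiples of 1 read (100%, tolerance 0.01), so reads were recovered. The submitters' processing notes list FastQC, STAR, featureCounts and DESeq2 and no versions. The sources used here do not give the genome build, annotation, strand setting or the handling of reads that fit both species, so human reads could be counted under a hamster gene. Per the file headers the table also holds the authors' deposited log2 fold changes, standard errors, test score and p-values, used only where the authors' table is named. The 1 row with a blank name (0.14 to 0.176% of reads) was left out.

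The main test was limma 3.58.1 (R 4.3.3) on log2(normalized count + 1) for genes whose mean reached 10 normalized counts. Group was the single term, with Benjamini-Hochberg adjustment over 13494 genes. Fold changes on this scale understate changes of low genes. On the recovered reads, edgeR 4.0.16 called 1564 genes and DESeq2 1.42.0 called 1595. The fits were also run on simulated counts with the same variance setting for all genes and no outlying library. That run does not cover data in which alone library 1 stands apart. The alternatives were other scalings, pseudocounts, filters and tools, array weights, a replicate block and leaving out each library. The members and lists were chosen with earlier results of these data known. The genes named by rule were all members, up to 3 called genes per list and a fixed set. Some genes of the lists are not reported here and were left out of their counts. List symbols were matched directly, by older symbol (4) or by LOC number (3). Levels were not compared between genes, since transcript lengths were not used here, and no sequence is shown. Figures were drawn with matplotlib 3.10.9.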

Additional observations from a re-analysis of the deposited data

Results flagged for a closer look

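The check covered the 24 tested genes named by rule, not the markers or the genes named only for a call without alone library 1. Each group of 4 libraries was checked for a lowest or highest library that stands apart. The gap to the nearest other library, as a share of the group's range, had to lie above Dixon's critical value for 4 samples. Of 48 groups 6 did so. Chance gives about 1 in 20 for independent groups, but these groups share the same 8 libraries, so no excess over chance can be read from this. Itgb5 in alone library 3 was 10660 normalized counts, the others 10820 to 10850. Thbs1 in alone library 1 was 3891 (others 4652 to 4731), Lgals3 in alone library 1 was 2375 (others 2042 to 2092) and Timp2 in alone library 1 was 3405 (others 3581 to 3608). Cd36 was 129.9 in alone library 3 (others 109.6 to 112) and 154.6 in co-culture library 4 (others 145.1 to 146).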

How the results depend on the processing

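For the members, 178 of 189 alternative values kept their direction and their side of the threshold. Lrp1 passed in 2, and 1 member was then called, without alone library 1 by limma (adjusted p = 0.0194) and, in a setting added after seeing the data, by edgeR (adjusted p = 0.0119). Signs turned for Itgav with array weights (-0.037) and, without alone library 1, by edgeR (-0.044) and DESeq2 (-0.043), and for Gulp1 in the last 2 settings (-0.0071 and -0.0053). Over left-out libraries the log2 fold change ran from -0.043 to 0.036 for Itgav, -0.18 to 0.075 for Lrp1 and -0.0032 to 0.068 for Gulp1. The cause was not tested.

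Of all genes, 858 were higher and 716 lower. The counts were 1804 and 1674 with array weights, 498 and 400 with the replicate block, and without alone library 1 they were 1802 and 1741 by edgeR and 1386 and 1158 by DESeq2. Over left-out libraries they ran from 416 to 1811 and from 356 to 1694, and members called from 0 to 1. For the related lists (3 higher, 5 lower) the counts were 10 and 13 with array weights and 2 and 0 with the replicate block. Without alone library 1 they were 10 and 15 (edgeR) and 8 and 12 (DESeq2), and over left-out libraries 2 to 10 and 0 to 13. Of all genes, 25.8% passed with array weights, and without alone library 1 26.1% by edgeR and 21.4% by DESeq2.

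Over the genes, deviations of same-numbered libraries correlated at -0.026, 0.068, 0.011 and -0.09. With 4 libraries per group this cannot settle whether the replicate numbers pair the samples. Lrp1 was lowest in library 1 and highest in library 2 of both groups. Its SE was 0.13 in the main fit and 0.079 with the replicate block (adjusted p = 0.769 by limma). With the replicate block no member was called, Mertk had an adjusted p of 0.168 and Pros1 of 0.276. The block ended the calls of Dab2 (0.0542), Timp2 (0.0589), Pisd (0.0616), Cd36 (0.0619), Itga3 (0.0708) and Lgals3 (0.0712), given as adjusted p, and DESeq2 without alone library 1 that of Cd36 (0.0633).

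Depth limits Mertk (1027 reads in all) and Gas6 (3 reads).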
